A study of Mus musculus with 10 samples.

Results

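The survey mirtrons are mouse miRNAs that carry the miRBase numbers 6896 to 7094, a run of names given to hairpins found in a survey of short introns and intron ends. Of the 1432 mature names in the deposited table, 341 fell in that number range and 267 of them had at least 1 read. The 93 names with 10 or more reads, summed over the 10 libraries, are the members described here. They were selected on their summed reads, so those reads are given as a description. Members just inside the minimum, with 10 to 12 reads, were 17 names such as miR-6934-3p (12 reads), miR-7030-3p (11 reads) and miR-7024-3p (10 reads). Just outside it were 11 names with 8 or 9 reads, such as miR-6935-3p (9 reads) and miR-6944-5p (8 reads).

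The libraries are small RNA from E13.5 mouse embryonic cortex, in 2 lines with a conditional knock-out. The groups, each of 2 mice, were Dicer knock-out (Dicer KO) and Dicer wild type (Dicer WT) in one line, and DGCR8 knock-out (DGCR8 KO), DGCR8 heterozygote (DGCR8 HET) and DGCR8 wild type (DGCR8 WT) in the other. The sources used here do not give the driver of the deletion, the strain or how many cells had lost the gene, and a table of miRNAs does not measure the deleted genes. For DGCR8, line and index number tied each column to its sample, because another number in the column names differs from the sample descriptions.

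A canonical miRNA is made in a nuclear and a cytoplasmic cut. Drosha and its partner DGCR8 free a hairpin from the primary transcript in the nucleus, and Dicer then removes the loop in the cytoplasm. A mirtron skips the first cut: splicing releases the intron, which is debranched and folds into a hairpin that Dicer can use. In a tailed mirtron only one end of the hairpin is set by a splice site, and an exonuclease is thought to trim the other. Because an intron ends in AG after a run of pyrimidines, the 3p arm of such a hairpin carries the letters of a splice acceptor. In Drosophila, hairpins ending in AG are tailed with U by the uridylyltransferase Tailor. Dicer KO and DGCR8 KO set side by side therefore ask which members depend on the second cut and not on the first.

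RefSeq (GRCm38.p6) held the mature sequence of 81 of the 93 members. The sequences of 11 members whose values are given in full below, and of miR-7018-3p, which shares a seed with one of them, are printed 5′ to 3′ with the seed (bases 2 to 8, the part that pairs with targets) in capitals.
miR-6944-3p: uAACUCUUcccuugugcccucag
miR-7068-3p: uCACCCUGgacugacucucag
miR-7018-3p: uCACCCUGcugccggcuugcag
miR-6977-3p: aAGGCGUUgccugacccugacc
miR-7046-3p: uGAACCACccaucccccuacag
miR-6914-3p: uCUGUCCAccucuucccag
miR-6948-3p: uGUCCUUCcugucugaccaca
miR-7015-3p: uCUCACUGuccucugcacuag
miR-6911-3p: uCAAUCACacucuguccacag
miR-7070-3p: cAGGCUCUccuucccuccag
miR-7079-3p: uGACUUCUguucucuuuccag
miR-6958-3p: uCAGCUGCcucuugccaucacag
Most of these end in AG after a run of U and C, the letters before an exon. The exceptions among them are miR-6977-3p and miR-6948-3p. CACCCUG, in miR-7068-3p and miR-7018-3p, was the single seed shared by members of different hairpins. The seed of miR-6944-3p occurred in no other mouse miRNA of the table.

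The whole hairpin of miR-6944 is shown because it is the most abundant member and a complete intron. It lies at chr13:55477681-55477776 on the minus strand (GRCm38), 96 bases long, with the 5p and 3p arms in capitals.
Mir6944 hairpin: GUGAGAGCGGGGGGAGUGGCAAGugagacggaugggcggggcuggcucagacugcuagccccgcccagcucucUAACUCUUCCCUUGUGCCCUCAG
Its first and last bases are those of an intron of Dbn1, which encodes drebrin, an actin-binding protein of neurons. The 5p arm begins with the GU of the splice donor, and the 3p arm ends with the AG of the acceptor. The exon that follows begins with GAG.

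Of the 70 member hairpins with coordinates, 4 matched an annotated intron at both ends, each within 1 base of the splice sites (5.71%). These were the hairpins of miR-6944 in Dbn1, miR-7068 in Cherp, miR-6958 in Dennd6b and miR-7018 in Hspg2, the gene of perlecan. Another 62 hairpins (88.6%) met only the splice acceptor, as tailed mirtrons do. The 2 that met only the donor include that of miR-6977 in Ptprs, a receptor phosphatase of neurons, and 2 lay in no annotated intron. Among 935 other mouse hairpins, 12 (1.28%) matched both ends and 109 (11.7%) the acceptor alone. Of the rest, 361 (38.6%) met neither end and 450 (48.1%) lay in no annotated intron. These others include hairpins of the same number range that are not members, and earlier mirtrons such as miR-877 and miR-1224. The survey looked at short introns and intron ends, so the members' places follow from their naming and are given as a description. The introns came from GENCODE M21, and the closest-fitting intron on the same strand was used for each hairpin.

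**Figure D1:**
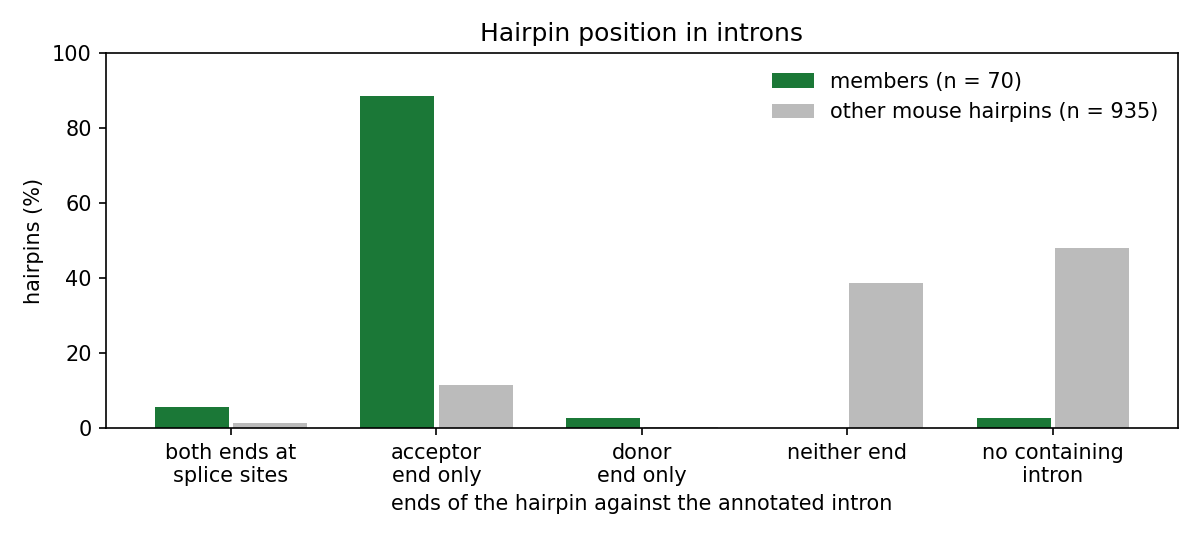
Bars give the percentage of hairpins (y axis) by how their ends meet the splice sites of the closest-fitting annotated intron (x axis), for members (green, 70 hairpins) and other mouse hairpins (grey, 935). Members are mostly in the acceptor class (88.6%), other hairpins mostly in the last 2 classes.

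The 3p arms carried the letters of that position. Of 66 sequenced 3p members, 56 ended in AG (84.8%), against 140 of 643 other mouse 3p miRNAs (21.8%). Here too the others include names of the same range that are not members, and the difference is a description. The last base of the annotated mature sequence lay exactly at the splice acceptor in 52 of the 66 (78.8%) and in 87 of the 643 (13.53%). Median pyrimidine content was 71.4% in 3p members and 57.1% in the others. The first base, which Argonaute proteins favour as U, was U in 59.1% of 3p members and 40.3% of the others. The 73 members with a named host gene lay in 68 genes, among them Notch1 (miR-6996-5p), the neuronal matrix gene Ncan (miR-7066-3p) and the ribosomal protein gene Rpl13 (miR-7079-3p). miR-6967 has copies in Kifc5b and Kifc1, and its reads cannot be assigned to either.

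Reads lay almost wholly on the 3p arm and mostly in a single name. The 77 3p members held 64856 of 65212 member reads (99.5%), with a median of 31 reads per name, and the 16 5p members held 356 reads, with a median of 14.5. Over the whole series, 37.4% of reads assigned to an arm were 3p. miR-6944-3p alone had 58648 reads, 89.9% of member reads, and ranked 61 among all miRNAs. Its share of member reads lay between 85.2% and 91.0% in the 10 libraries. The next member, miR-7068-3p, had 1269 reads, and 32 members had a read in every library. The range's names under the minimum added 542 reads, 0.824% of the reads in the range.

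**Figure D2:**
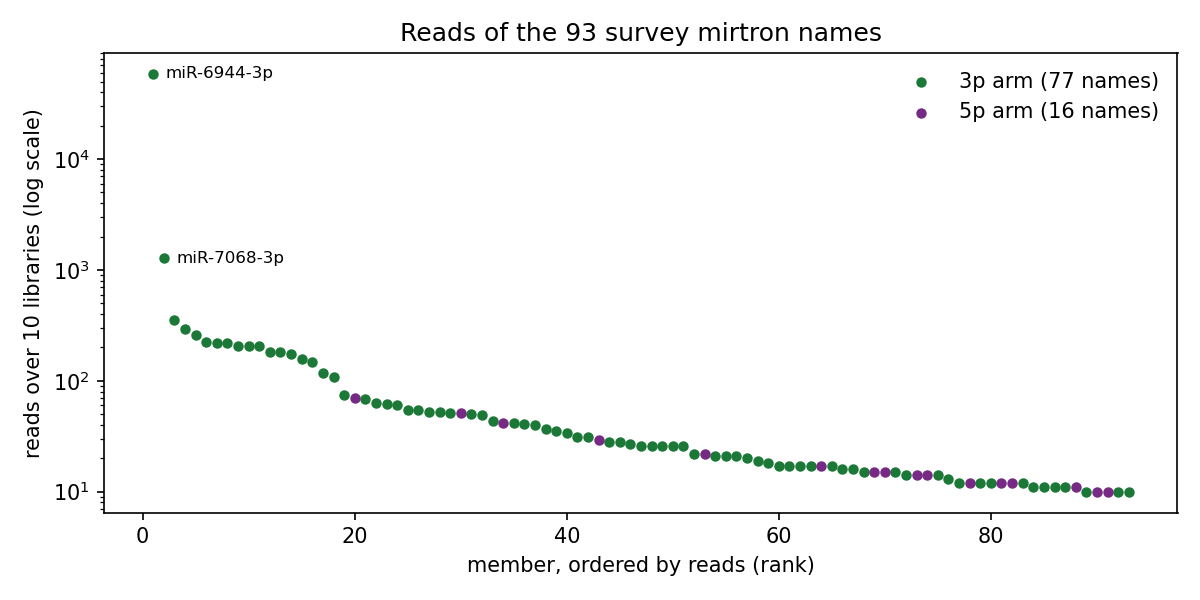
Each point is a member, ordered by its reads over the 10 libraries (x axis, rank; y axis, reads on a log scale), green for 3p and purple for 5p arms. miR-6944-3p (58648 reads) stands far above miR-7068-3p (1269 reads), and the 16 5p names begin at 70 reads.

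Opposite arms were scarce. miR-6944-3p faced 8 reads of its 5p arm (0.0136% of both arms), miR-7068-3p faced 2 reads, and miR-7079-3p, miR-6988-3p and miR-7075-3p faced none. For 9 hairpins both arms were members, from miR-7070 (12 reads of 5p and 206 of 3p) and miR-7083 (29 and 42) to miR-6934 (12 and 12). Of the 16 5p members, 7 had more reads than their 3p partner, led by miR-6996-5p in Notch1 (70 against 7 reads), miR-7059-5p in Cln3 (51 against 4) and miR-6997-5p in Sptan1 (42 against 6). Ends of these 3 hairpins met the acceptor, as for most 3p members.

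Depth, in miRNA reads per library, ranged from 800623 to 4486774, and the mean of Dicer WT was 4.76 times that of Dicer KO. Of 9 listed vessel and blood miRNAs, 8 were in the table, and none of the 8 was at 0. They took from 3.25% to 3.80% of reads in Dicer KO and from 0.987% to 1.24% in Dicer WT. The DGCR8 line had 0.923% to 1.04% in DGCR8 KO, 0.582% and 0.940% in DGCR8 HET, and 0.589% to 0.592% in DGCR8 WT. Cortex miRNAs (5 of 5 listed, none at 0) took 12.1% to 13.6% of reads in Dicer KO and 21.7% to 24.1% in Dicer WT. Their shares were 14.90% to 15.03% in DGCR8 KO, 21.5% and 21.0% in DGCR8 HET, and 20.4% to 22.2% in DGCR8 WT. Choroid plexus and epithelial miRNAs (7 of 7 listed, none at 0) took 0.773% and 2.01% of reads in Dicer KO and 0.326% and 0.910% in Dicer WT. In the DGCR8 line they took 0.325% and 0.132% in DGCR8 KO, 0.101% and 0.541% in DGCR8 HET, and 0.125% and 0.131% in DGCR8 WT. Muscle miRNAs (3 of 3 listed, up to 2 at 0 in a library) took 0.00559% and 0.00187% in Dicer KO and 0.000874% and 0.000513% in Dicer WT. Their shares were 0.00482% and 0.00365% in DGCR8 KO, 0.00173% and 0.00186% in DGCR8 HET, and 0.00123% and 0.00103% in DGCR8 WT. The part of these differences in the results below was not tested. In such tissue libraries, fewer cells of a type and less RNA per cell cannot be told apart.

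The members' summed share of miRNA reads was lower in Dicer KO and higher in DGCR8 KO than in the wild type of each line. It was 0.137% and 0.125% in the Dicer KO libraries, against 0.301% and 0.252% in the Dicer WT libraries. In the DGCR8 line it was 0.442% and 0.456% in DGCR8 KO, 0.268% and 0.227% in DGCR8 HET, and 0.236% and 0.229% in DGCR8 WT. Neither knock-out overlapped its wild type, and the DGCR8 HET libraries overlapped DGCR8 WT. Means were 0.131% ± 0.0085 in Dicer KO and 0.276% ± 0.034 in Dicer WT (SD, n = 2 each), a ratio of 0.473. They were 0.449% ± 0.010 in DGCR8 KO and 0.232% ± 0.0049 in DGCR8 WT (SD, n = 2 each), a ratio of 1.93. DGCR8 HET, at 0.248% ± 0.029, stood at 1.07 times DGCR8 WT. Shares were not tested; with 2 libraries a group an exact two-sided permutation could give no p below 0.333. Shares are of library totals, so a change in other abundant miRNAs moves them too.

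Without miR-6944-3p the remaining 92 members had the same order of groups at a smaller distance. Their sum was 186.1 and 184.9 RPM (reads per 1000000 miRNA reads) in Dicer KO, against 271.6 and 268.3 in Dicer WT, a ratio of 0.687. It was 407.7 and 426.0 in DGCR8 KO, 259.7 and 250.3 in DGCR8 HET, and 243.0 and 248.3 in DGCR8 WT, a ratio of 1.70 between DGCR8 KO and DGCR8 WT. The Dicer KO libraries stood below, and the DGCR8 KO libraries above, every other library. Since the knock-out and wild-type totals differ in depth, each library's 95% Wilson interval is drawn with its value, and covers counting error only.

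**Figure D3:**
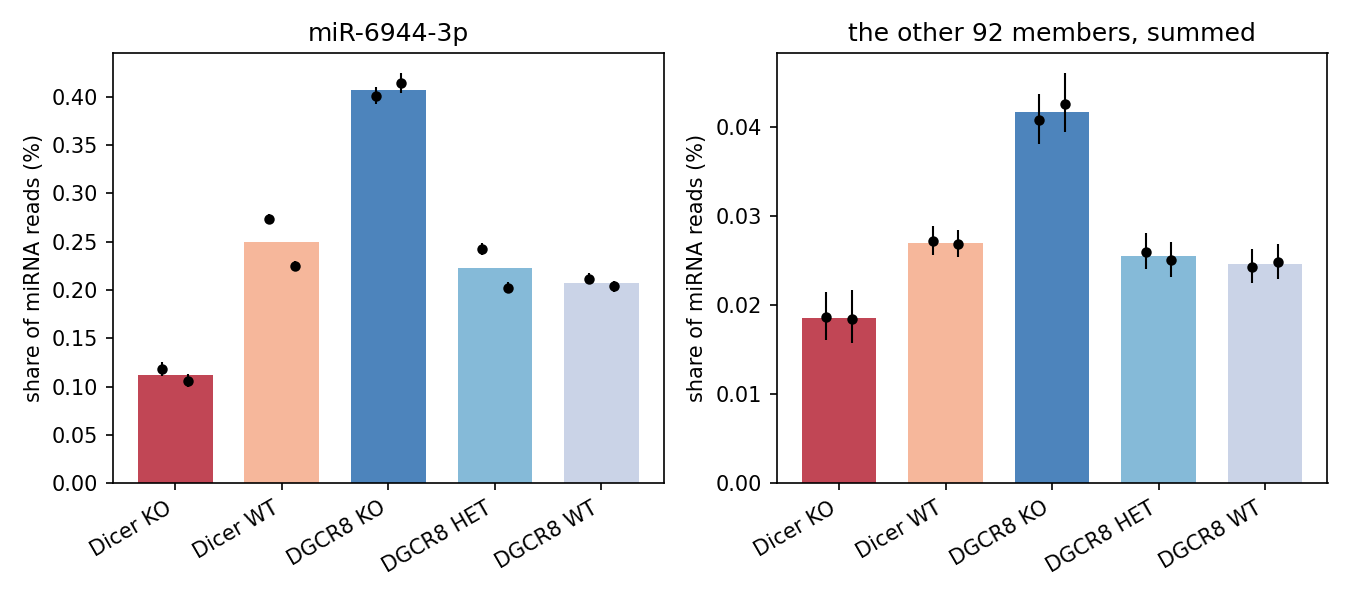
Shares of miRNA reads in percent (y axes) for miR-6944-3p (left) and the other 92 members summed (right) in the 5 groups. Bars are group means, points the 2 libraries and lines their 95% Wilson intervals. Dicer KO is lowest and DGCR8 KO highest in both panels.

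The 5p members, taken alone, summed to 6.10 and 21.2 RPM in Dicer KO, against 12.2 and 15.8 in Dicer WT, so the groups overlapped. In DGCR8 KO they summed to 20.4 and 26.7 RPM, in DGCR8 HET to 12.3 and 14.2, and in DGCR8 WT to 13.4 and 13.2. The 2 Dicer KO values rest on 6 and 17 reads, too few for a comparison of the arms.

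Other miRNAs known to be made without DGCR8 are set beside the members as values. Mirtrons described before the survey (both arms of miR-702, miR-877, miR-1224, miR-1981 and miR-1982) took 0.0294% ± 0.0058 of reads in Dicer KO and 0.0466% ± 0.0010 in Dicer WT (SD, n = 2 each), a ratio of 0.631. They took 0.0604% ± 0.0024 in DGCR8 KO and 0.0369% ± 0.0010 in DGCR8 WT (SD, n = 2 each), a ratio of 1.64. The capped-hairpin, tRNA- and snoRNA-derived miRNAs (miR-484, miR-320, miR-1983 and miR-1839) had a ratio of 0.629 between Dicer KO and Dicer WT and of 1.57 between DGCR8 KO and DGCR8 WT. The members, at 0.473 and 1.93, lay farther from 1 in each direction, and without miR-6944-3p (0.687 and 1.70) they did so only in the DGCR8 line. These distances between lists were not tested.

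Single members were compared in CPM, read counts scaled by library total and TMM (trimmed mean of M values), which sets the typical miRNA equal between libraries. The fit held 557 miRNAs, of which 21 were members, and 20 of these were 3p. The other 72 members were too scarce to test. miR-6996-5p, miR-6899-3p and miR-7047-3p passed the minimum only through the DGCR8 KO libraries, so counts and medians over the 21 are a description and give no support to a higher level there.

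miR-6944-3p moved in opposite directions in the 2 knock-outs. It had 1158 and 1027 CPM in Dicer KO, against 3055 and 2643 CPM in Dicer WT. In the DGCR8 line it had 3105 and 3417 CPM in DGCR8 KO, 2498 and 2178 CPM in DGCR8 HET, and 2192 and 2227 CPM in DGCR8 WT. Both Dicer KO libraries were below all others, and both DGCR8 KO libraries were above the rest of their line. In edgeR's quasi-likelihood test it fell in Dicer KO (log2 fold change −1.38 ± 0.15 SE, adjusted p = 2.62e-04), a level 2.61-fold lower. It rose in DGCR8 KO against DGCR8 WT by 1.48-fold (0.56 ± 0.15, adjusted p = 0.0310, edgeR). The DGCR8 call was lost in edgeR without any 1 of the 4 DGCR8 KO and DGCR8 WT libraries (adjusted p up to 0.238), while the log2 fold change lay between 0.54 and 0.69 in the 10 omissions of a library.

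miR-6958-3p, from a complete intron of Dennd6b, had the widest distance between the 2 knock-outs among called members. It had 3.99 and 2.42 CPM in Dicer KO, against 8.65 and 8.38 CPM in Dicer WT. It had 12.7 and 15.6 CPM in DGCR8 KO, 6.54 and 5.67 CPM in DGCR8 HET, and 4.77 and 4.51 CPM in DGCR8 WT. The groups of each line did not overlap. In DGCR8 KO it rose 3.003-fold over DGCR8 WT (1.59 ± 0.29, adjusted p = 0.0114, edgeR) and 2.29-fold over DGCR8 HET (1.20 ± 0.28, adjusted p = 0.0279, edgeR). The second call was lost without any 1 of the 6 libraries of that line (adjusted p up to 0.239), with the replicate block (adjusted p = 0.0557, edgeR) and in thinned libraries (adjusted p = 0.0561, edgeR). DESeq2 gave it no adjusted p. Without any 1 of the 4 DGCR8 KO and DGCR8 WT libraries the adjusted p of the first rose to as much as 0.139. It fell in Dicer KO (−1.36 ± 0.39, adjusted p = 0.0390, edgeR), a call that rests on 4 and 2 reads in Dicer KO and was lost in 6 of 7 other settings (adjusted p up to 0.247).

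A further 3 members, each 3p, were called in Dicer KO. miR-7068-3p, a complete intron of Cherp, had 44.9 and 31.5 CPM in Dicer KO, against 73.1 and 73.0 CPM in Dicer WT (−0.93 ± 0.26, adjusted p = 0.0232, edgeR). In the DGCR8 line it had 52.4 and 62.9 CPM in DGCR8 KO, 43.6 and 49.7 CPM in DGCR8 HET, and 34.99 and 46.0 CPM in DGCR8 WT, with no call (0.51 ± 0.25, adjusted p = 0.168, edgeR). Its Dicer KO libraries lay below Dicer WT, and Dicer WT had the highest mean CPM of the 5 groups. On library totals DGCR8 KO was highest instead, at 71.9 RPM against 63.8 RPM in Dicer WT.

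miR-6977-3p, at the donor end of a Ptprs intron, had 6.99 and 2.42 CPM in Dicer KO, against 15.6 and 16.2 CPM in Dicer WT (−1.70 ± 0.39, adjusted p = 0.0109, edgeR). It had 17.3 and 21.0 CPM in DGCR8 KO, 15.7 and 15.7 CPM in DGCR8 HET, and 15.5 and 14.4 CPM in DGCR8 WT, with no call. Its DGCR8 libraries lay close together, with the highest in DGCR8 KO. miR-7079-3p, at the acceptor of an Rpl13 intron, had 3.99 and 3.63 CPM in Dicer KO, against 10.04 and 11.3 CPM in Dicer WT (−1.46 ± 0.39, adjusted p = 0.0197, edgeR). It had 7.70 and 9.68 CPM in DGCR8 KO, 10.02 and 8.29 CPM in DGCR8 HET, and 9.54 and 6.77 CPM in DGCR8 WT, so its groups overlapped there. Without Dicer KO replicate 2 the calls of miR-6977-3p (adjusted p = 0.0506, edgeR), miR-7068-3p and miR-7079-3p were lost. That of miR-7068-3p was also lost without either Dicer WT library (adjusted p up to 0.0863), and that of miR-7079-3p without Dicer KO replicate 1 or Dicer WT replicate 2 (adjusted p up to 0.0784). In reads without additions miR-6977-3p (−0.42) and miR-7068-3p (−0.033) were not called. The miR-7068-3p call was also lost on library totals (adjusted p = 0.0523, edgeR), in thinned libraries (adjusted p = 0.169, edgeR) and with the lines fitted apart (adjusted p = 0.0708, edgeR). The miR-7079-3p call was also lost with the lines fitted apart (adjusted p = 0.0512, edgeR) and in DESeq2 (adjusted p = 0.182). The log2 fold change of miR-6977-3p was −2.77 with replicate 1 of Dicer KO left out and −1.24 with replicate 2 left out.

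The other 6 members with the most reads were called in no comparison. miR-7046-3p, in Rabac1, had 7.99 and 8.47 CPM in Dicer KO, against 8.09 and 14.1 CPM in Dicer WT, and 13.1 and 11.8 CPM in DGCR8 KO, 13.1 and 14.8 CPM in DGCR8 HET, and 15.1 and 16.7 CPM in DGCR8 WT. It was one of 3 tested members with a value below 0 in DGCR8 KO (−0.34 ± 0.30, adjusted p = 0.420, edgeR). miR-6914-3p had 10.98 and 4.84 CPM in Dicer KO, against 10.04 and 11.8 CPM in Dicer WT, and 11.6 and 18.8 CPM in DGCR8 KO, 11.8 and 10.9 CPM in DGCR8 HET, and 9.94 and 9.93 CPM in DGCR8 WT. Its DGCR8 KO libraries differed from each other by more than the lower of them differed from DGCR8 WT.

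miR-6948-3p had 5.99 and 6.05 CPM in Dicer KO, against 7.53 and 9.95 CPM in Dicer WT, and 16.2 and 11.8 CPM in DGCR8 KO, 7.41 and 7.41 CPM in DGCR8 HET, and 13.9 and 7.22 CPM in DGCR8 WT. miR-7015-3p had 5.99 and 7.26 CPM in Dicer KO, against 7.81 and 12.04 CPM in Dicer WT, and 10.01 and 13.4 CPM in DGCR8 KO, 13.1 and 8.29 CPM in DGCR8 HET, and 6.76 and 8.12 CPM in DGCR8 WT. For both, Dicer KO lay below Dicer WT without overlap, and with no call. miR-6911-3p, in Dazap1, had 3.99 and 7.26 CPM in Dicer KO, against 7.53 and 9.42 CPM in Dicer WT, and 10.01 and 6.99 CPM in DGCR8 KO, 11.3 and 14.8 CPM in DGCR8 HET, and 8.75 and 10.8 CPM in DGCR8 WT. Its level was highest in DGCR8 HET. miR-7070-3p had 3.99 and 4.84 CPM in Dicer KO, against 8.09 and 9.42 CPM in Dicer WT, and 12.3 and 14.5 CPM in DGCR8 KO, 6.97 and 9.60 CPM in DGCR8 HET, and 5.57 and 9.93 CPM in DGCR8 WT. It had neither call (Dicer KO −0.99 ± 0.44, adjusted p = 0.117; DGCR8 KO 0.79 ± 0.33, adjusted p = 0.122, edgeR), though neither knock-out overlapped its wild type.

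Over the tested members, 5 of 21 were called lower and 0 higher in Dicer KO, where 30.9% of all 557 tested miRNAs were called, 14.9% higher and 16% lower. The members' median log2 fold change was −0.97, against −0.0091 for all tested miRNAs, and 1 of 21 lay above 0 against 49.4% of all. Among members not called, miR-6988-3p, in Syvn1, stood at −0.0078 ± 0.49 and miR-6989-3p, in Map4k2, at −0.033 ± 0.43. The widest of these values had wide errors too: miR-6996-5p at −2.52 ± 1.17, miR-7006-3p, in Zfp512b, at −1.99 ± 0.96 and miR-6975-3p, in Ddx39b, at −1.63 ± 0.65. The rest, miR-7075-3p (in Terf2), miR-6952-3p, miR-6956-3p, miR-6899-3p (in Klf7) and miR-7047-3p, lay between −1.18 and 0.16.

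In DGCR8 KO against DGCR8 WT, 2 of 21 members were called higher and 0 lower, where 20.6% of all tested miRNAs were called, 8.8% higher and 11.8% lower. The members' median was 0.48, against 0.017 for all tested miRNAs. Above 0 lay 18 of 21 members and 51.0% of all tested miRNAs. Among members not called, 16 lay above 0, and the lowest was miR-6989-3p at −0.38 ± 0.36. The highest of them was miR-7047-3p at 1.12 ± 0.75. Like miR-6996-5p and miR-6899-3p, it passed the minimum only through the DGCR8 KO libraries. The scaling sets the height of these values: on library totals the median of all miRNAs moved up by 0.41, and 4 members were called higher.

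In DGCR8 HET against DGCR8 WT, edgeR called 0 of 21 members, 0% of all tested miRNAs were called, and 0 members had an unadjusted p under 0.05. DESeq2 called 0 members too. The members' median was 0.11, against 0.021 for all tested miRNAs. In DGCR8 KO against DGCR8 HET 1 member was called higher, miR-6958-3p, where 8.62% of all were called, 1.97% higher and 6.64% lower. miR-6944-3p stood at 0.48 ± 0.15 there (adjusted p = 0.0710, edgeR), with calls on library totals and in DESeq2.

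The difference between the knock-out effects of the 2 lines (DGCR8 KO minus Dicer KO, an interaction) was called above 0 for 2 of 21 members, where 2.15% of all tested miRNAs were called, 0.898% above 0 and 1.26% below. It was 1.94 ± 0.21 for miR-6944-3p (adjusted p = 0.00292, edgeR) and 2.95 ± 0.48 for miR-6958-3p (adjusted p = 0.0124, edgeR). The first was lost only without DGCR8 WT replicate 1 among the 10 omissions (adjusted p = 0.0533), and the second was lost in 4 of them, without Dicer WT replicate 1, DGCR8 KO replicate 2 or either DGCR8 WT library (adjusted p up to 0.0953). DESeq2 gave miR-6958-3p no adjusted p here. For miR-7068-3p it was 1.44 ± 0.36 (adjusted p = 0.0836, edgeR). A difference above 0 was not particular to the members. The 5 miRNAs called above 0 include miR-1983 (1.82 ± 0.22, adjusted p = 0.00425, edgeR) from the lists above. They also include miR-702-3p (1.92 ± 0.31) and miR-484 (1.07 ± 0.17), each with adjusted p = 0.0122 (edgeR). All 8 tested early mirtrons (median 1.24) and all 5 tested capped-hairpin, tRNA- and snoRNA-derived names (median 1.07) lay above 0. Over the tested members the median was 1.45, against 0.017 for all tested miRNAs. Above 0 lay 20 of 21 members and 51.0% of all tested miRNAs. The 20 include miR-6996-5p, miR-6899-3p and miR-7047-3p, which passed the minimum only through the DGCR8 KO libraries.

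The wild types of the 2 lines were compared to show how far members differ between the lines without a deletion. Index numbers were reused in the 2 lines, and line and library handling cannot be told apart in this contrast. In DGCR8 WT against Dicer WT 0 of 21 members were called by edgeR, where 7.54% of all were called, 2.69% higher and 4.85% lower, and 3 members had an unadjusted p under 0.05. Those were the 3 tested members from complete introns, a grouping seen after their values: miR-6944-3p at −0.37 ± 0.15, miR-7068-3p at −0.85 ± 0.24 and miR-6958-3p at −0.87 ± 0.29, with adjusted p = 0.150, 0.0672 and 0.0969.

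**Figure D4:**
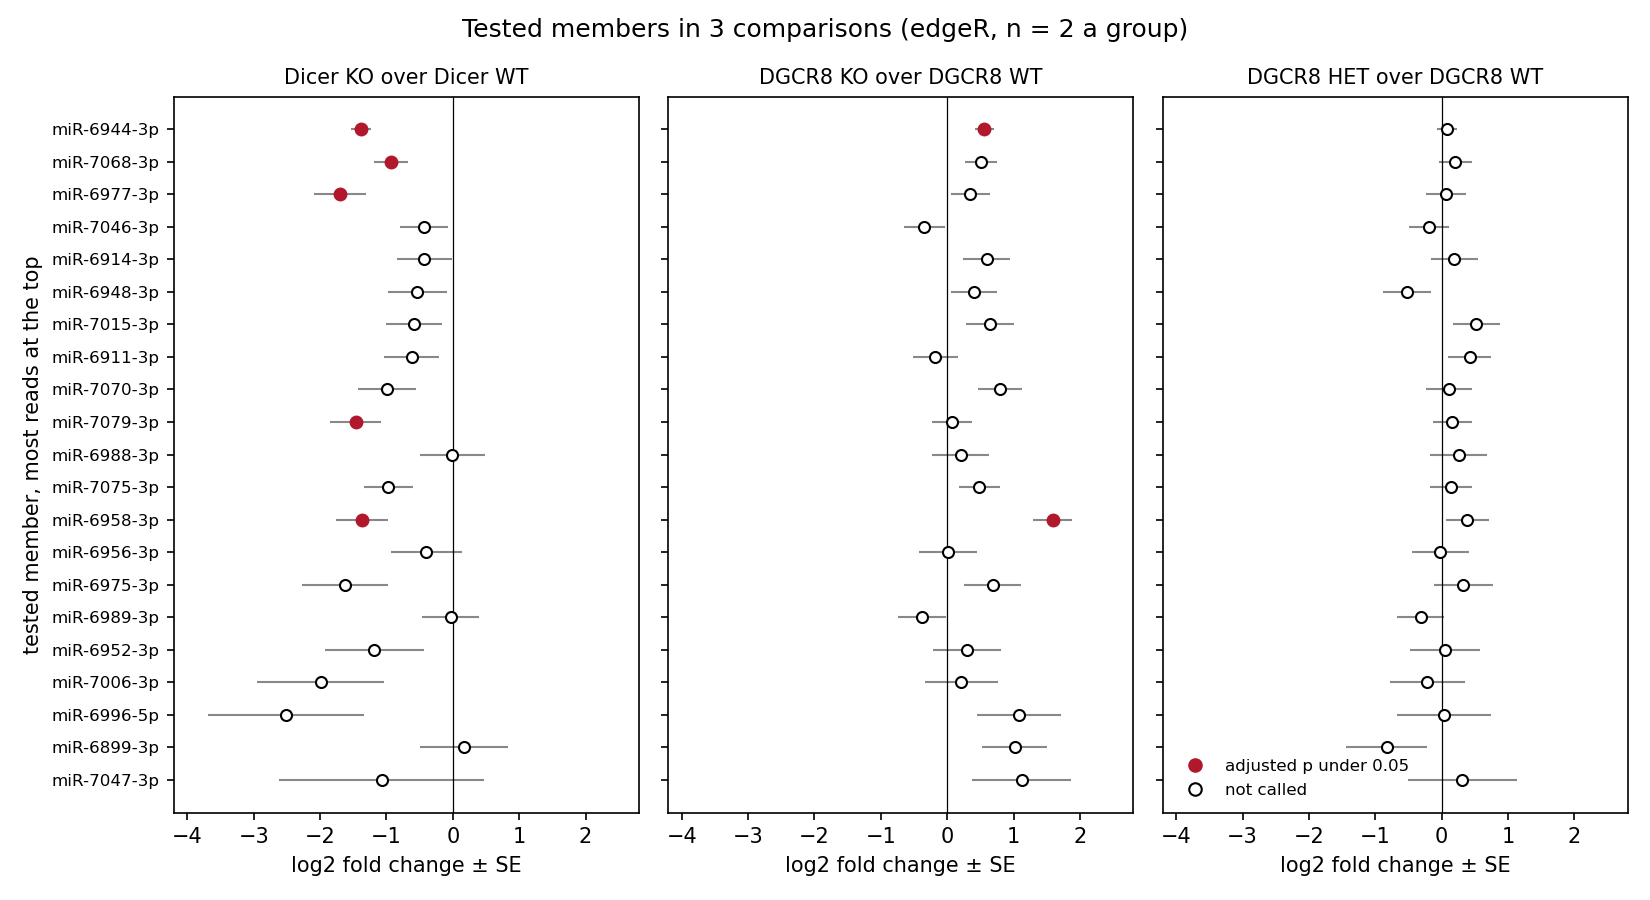
Log2 fold changes ± SE (x axes) of the 21 tested members (y axis, most reads at the top) in Dicer KO over Dicer WT (left), DGCR8 KO over DGCR8 WT (middle) and DGCR8 HET over DGCR8 WT (right), n = 2 a group. Filled red points have an edgeR adjusted p under 0.05. Members lie mostly left of 0 in the first panel (median −0.97) and mostly right of it in the second (median 0.48).

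The 72 untested members, summed, gave 55.9 and 62.5 RPM in Dicer KO, against 81.4 and 72.9 in Dicer WT. They gave 112.9 and 111.4 in DGCR8 KO, 67.2 and 69.7 in DGCR8 HET, and 72.8 and 74.8 in DGCR8 WT. Dicer KO was below Dicer WT and DGCR8 KO above DGCR8 WT, without overlap. The Dicer KO sums rest on 55 and 50 reads. The 95% Poisson interval of replicate 1 was 42.1 to 72.8 RPM. That of replicate 2, 46.4 to 82.3 RPM, spans both Dicer WT values. These names were kept on reads summed over libraries of unequal depth, deepest in Dicer WT, so the sums are a description. In the 2 Dicer KO libraries, the shallowest of the 10, 28 members had no read. Thinned to 800623 reads each, the Dicer KO libraries showed 52 and 49 members with a read, against 60 and 59 in Dicer WT, and 63 and 73 in DGCR8 KO, 52 and 55 in DGCR8 HET, and 54 and 53 in DGCR8 WT.

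Reads of the members mostly carried a base beyond the annotated 3′ end. The choice of members did not use the added base itself, but reads with additions counted toward the minimum of 10. For miR-6944-3p, 80.8% of reads had T (U in the RNA) as the first added base. A single T made up 70.3% of its reads, no addition 14.2%, TT 4.46% and a single A 3.605%. The next genomic base is G, the first base of the Dbn1 exon, so the added T does not match it. The first-T share was 80.8% ± 1.8 in Dicer KO and 81.7% ± 0.067 in Dicer WT, and 79.8% ± 0.63 in DGCR8 KO, 80.8% ± 0.81 in DGCR8 HET and 80.5% ± 0.15 in DGCR8 WT (SD, n = 2 each). These means lay within 2 percentage points of each other across genotypes.

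The other 3p members, pooled, had T as the first added base in 70.0% ± 0.82 of reads in Dicer KO and 72.6% ± 1.5 in Dicer WT (SD, n = 2 each). The shares were 72.0% ± 2.2 in DGCR8 KO, 72.4% ± 0.66 in DGCR8 HET and 71.6% ± 0.66 in DGCR8 WT (SD, n = 2 each). Pooled over all other 3p miRNAs, the share was 51.8% ± 0.78 in Dicer KO and 48.0% ± 0.29 in Dicer WT, and 41.8% ± 2.1 in DGCR8 KO, 45.8% ± 0.80 in DGCR8 HET and 45.6% ± 0.27 in DGCR8 WT (SD, n = 2 each). By name, with 100 or more reads, 17 of 18 3p members had a first-T share over 50% (94.4%; median 85.3%), against 32 of 250 other 3p miRNAs (12.8%; median 8.65%). The exception was miR-6948-3p, whose annotated end is not AG and which had no read with a first added T. It had no addition in 63.1% of reads and no first added A, so its remaining reads began their addition with another base. Its next genomic base is not known, so an added base and a longer read cannot be told apart for it. The pooled shares weigh names by their reads, and the shares by name weigh them equally.

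**Figure D5:**
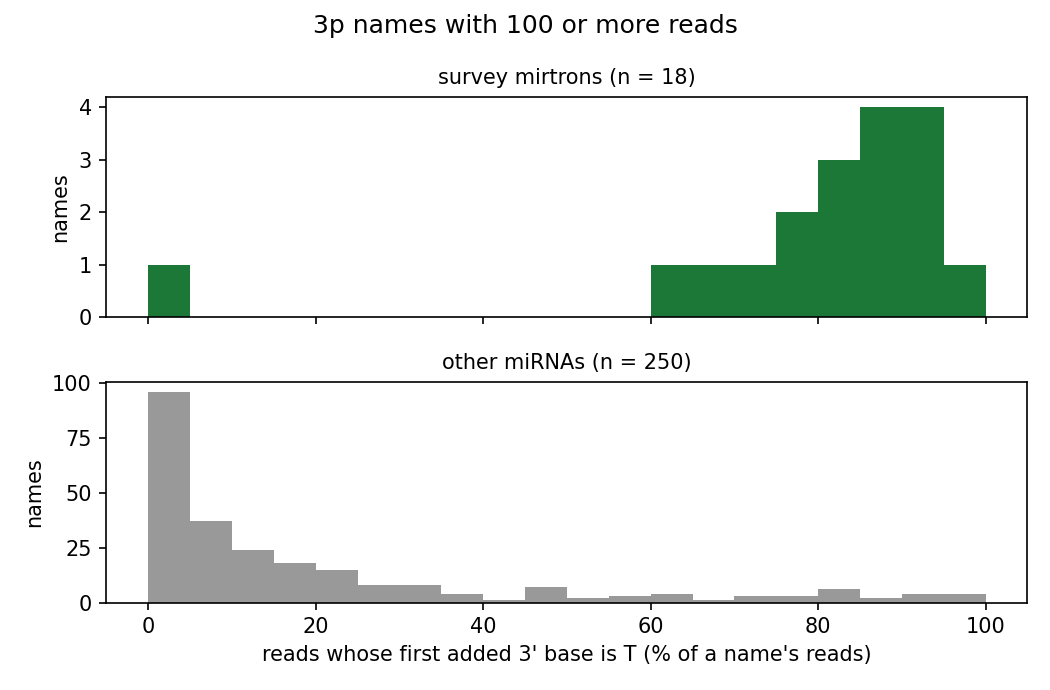
Histograms of 3p names with 100 or more reads by the percentage of their reads whose first added 3′ base is T (x axis; y axis, number of names), for survey mirtrons (top, 18 names) and other miRNAs (bottom, 250 names). All but 1 of the members lie above 50%, and most other names lie near 0.

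First-T shares were also set against the place of the 3′ end. Among 3p members with 20 or more reads, the 35 whose annotated end lies at the splice acceptor had a median first-T share of 81.0%, and 32 of them exceeded 50%. Of 5 that end elsewhere in an intron, at a median of 7.14%, only miR-6977-3p exceeded 50% (63.8%), and it is followed by U in the genome. The annotated ends of miR-7047-3p, miR-6945-3p, miR-6962-3p and miR-6994-3p lie 2 bases before the acceptor and are followed by A. These had a first added A in 75.5%, 84.0%, 67.9% and 84.6% of reads. For them an added A and a longer read cannot be told apart, so their low first-T shares depend on the annotated end. The 5 not placed in an annotated intron had a median of 77.8%, and 3 exceeded 50%. Among these, miR-7015-3p, miR-7070-3p and miR-6948-3p had no hairpin coordinates, so their place is not known. At 100 or more reads the contrast is not seen, since 11 of 11 members at an acceptor exceeded 50%, as did miR-6977-3p, the single member placed elsewhere, and 3 of 4 that were not placed. Names with a single locus and a known next genomic base were also compared. The median was 81.2% for 18 names followed by G and 87.5% for 7 followed by C. T was thus frequent where the genome holds G or C. For 11 names followed by A the median was 31.0%, with a range of 0% to 93.2%. For 5 names followed by U, with a median of 71.4%, an added T and a longer read cannot be told apart. Outside the members, 2 names with 100 or more reads end at an acceptor, with first-T shares of 82.9% and 93.7%, the first being followed by U in the genome.

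The earlier mirtrons were not alike in this respect. miR-1224-3p, which ends at its acceptor, had a first added T in 97.4% of 38 reads, and miR-1982-3p in 55.6% of 90 reads. miR-877-3p, whose annotated end lies 1 base from the acceptor, had T in 17.2% of 927 reads. miR-1981-3p ends 2 bases from it, is followed by A in the genome, and had a first added A in 83.6% of 1510 reads. miR-702-3p, the earlier 3p name with the most reads, lay in no annotated intron. It had a first added A in 98.9% and T in 0.229% of 3497 reads. Pooled over the earlier 3p names, first-T shares ran from 3.95% to 9.49% in the 10 libraries, and first-A shares from 70.7% to 83.1%. Added bases are counted from the annotated end, so a different annotated end changes what counts as added.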

How the data were processed

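The deposited table holds the authors' raw read counts for 19414 entries, an entry being a mature name and the bases added at its 3′ end. Per the submitters' processing notes, Bowtie and GRCm38 were used; the sources used here do not give versions, mismatches or how multiply matching reads were treated. Per the labels, libraries were made from 1000 ng of total RNA. Counts were summed by name. edgeR 4.0.16 (R 4.3.3) fitted all 10 libraries by group with TMM scaling and the quasi-likelihood test, after filterByExpr (minimum count 10, minimum total 15). The biological coefficient of variation was 0.23. Two-sided P-values were adjusted (Benjamini-Hochberg) across the 557 tested miRNAs in each of 6 contrasts, and under 0.05 was called. The SE of a log2 fold change is its size without the sign, divided by the square root of the test's F statistic. It is thus no separate estimate, and need not match the P-value of members with few reads. Scaling is relative, without spike-ins. The script was tested on simulated data. Values are given in full for the 10 members with most reads and every called member. Members and lists were chosen with earlier results of these data known. Replicates differed beyond counting noise. Same-numbered libraries did not deviate together (correlations −0.050 to 0.17). DESeq2 1.42.0 and other settings were alternatives. Sequences were read from RefSeq tables with Python 3.11.15.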

Additional observations from a re-analysis of the deposited data

Results flagged for a closer look

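For 2 members the effect of the DGCR8 knock-out differed from that of the Dicer knock-out in a direct test of the difference between the 2 lines (edgeR's quasi-likelihood test, log2, DGCR8 KO minus Dicer KO). The difference was 1.94 for miR-6944-3p, which fell in both Dicer KO libraries and rose in both DGCR8 KO libraries. It was 2.95 for miR-6958-3p, which has few reads (4 and 2 in the Dicer KO libraries) and no adjusted p in DESeq2. The 2 wild types differed in the level of both members by an amount that was not called. The test of the difference called 5 miRNAs above 0 in all. Among them were miR-1983, miR-702-3p and miR-484, which are not members.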

How the results depend on the processing

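Each comparison was repeated with other settings. The tested members changed with the setting, so the counts and medians below are not over the same members throughout. miR-6958-3p and miR-7079-3p were not tested in reads without 3′ additions, nor miR-7079-3p in thinned libraries, and these are not lost calls. In Dicer KO against Dicer WT, 5 members called became 3 on library totals, 8 with no filter on low counts, 1 in reads without 3′ additions, 2 in thinned libraries, 2 with the lines fitted apart and 3 in DESeq2, and from 1 to 6 with a library left out. The median there was −0.74 on library totals, −0.35 without additions and −1.12 to −0.84 with a library left out. In DGCR8 KO against DGCR8 WT, 4 members were called on library totals and 0 to 2 with a library left out, at a median of 0.89 on library totals, 0.67 thinned and 0.30 to 0.47 with a library left out. In DGCR8 HET against DGCR8 WT the median was −0.097 without additions, 0.38 thinned, and −0.035 (without DGCR8 HET replicate 2) to 0.12 with a library left out. In DGCR8 KO against DGCR8 HET, 4 members were called on library totals, 2 with relative log expression scaling, 2 with no filter, 0 thinned, 3 with the lines fitted apart and 0 to 3 with a library left out, at a median of 0.74 on library totals, 0.82 without additions and 0.28 to 0.53 with a library left out. For the difference between the 2 knock-out effects, 4 were called on library totals, 6 with no filter, 1 without additions and 0 to 4 with a library left out, at a median of 1.63, 1.65, 1.31 and 0.90 to 1.74 in these, and 1.73 thinned. In DGCR8 WT against Dicer WT the median was 0.068 without additions, −0.56 thinned and −0.15 to 0.039 with a library left out.

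Summed shares without additions were 0.0348% in Dicer KO, 0.0621% in Dicer WT, 0.112% in DGCR8 KO, 0.0553% in DGCR8 HET and 0.0539% in DGCR8 WT. With the 10 most abundant miRNAs left out of the total they were 0.297%, 0.692%, 0.962%, 0.605% and 0.567% in the same groups. The fit with a replicate block called 0 members in DGCR8 KO against DGCR8 HET and changed no other count by more than 1.5 times. The causes were not tested. Where a library is left out, the lone library of its group is assumed to vary like the other groups. DESeq2 gave no adjusted p to 18 of 21 members in DGCR8 KO against DGCR8 HET and to 16 in the difference of effects, and these are not counted as lost calls.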
